A study of Homo sapiens with 2 samples.

Results

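The keratin gene clusters were examined in a list of Myocardin chromatin immunoprecipitation peaks from A549, a human lung adenocarcinoma line. The members were all summits between positions 52562000 and 53347000 on chromosome 12, the type II keratin cluster with KRT18, and between 38804000 and 39781000 on chromosome 17, the type I keratin cluster with the keratin-associated protein genes. Positions are in GRCh37, and the choice used position alone, not score. There were 202 such summits of 105637 in the list. Of these, 94 lay in the type II cluster and 108 in the type I cluster. In the type II cluster, 6 summits lay between 53290000 and 53347000, the part that holds KRT8 and KRT18, and 88 in the remaining 728 kb, which holds the other type II keratins, among them those of hair and skin and KRT7.

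The cells stably overexpressed MYOCD from the vector pWPI. Chromatin was pulled down once with anti-Myocardin and once with IgG, 1 library per antibody and no replicate, and both libraries came from overexpressing cells. The deposited list ties no summit to either antibody, so no comparison with IgG was possible, and the depth of the libraries was not given in the sources used here. Intervals below are 95% and cover counting error in this 1 list. They treat summits as independent and say nothing of variation between experiments. No expression was measured in this series, so whether a keratin gene was active in these cells was not tested.

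Keratins are the intermediate filament proteins of epithelia. Each filament is built from pairs of an acidic type I and a basic type II keratin, and their genes lie in separate clusters. KRT8 and KRT18 are the pair of simple epithelia such as those of the lung, and KRT18 is the type I gene that lies at the edge of the type II cluster. KRT7 and KRT19 are also simple epithelial keratins, and each lies among genes for skin and hair. KRT5 and KRT14 are the pair of basal epidermal cells, KRT1 and KRT10 that of the differentiating epidermis, and KRT81, KRT83, KRT85, KRT86 and KRT31 are keratins of the hair shaft. Keratin-associated proteins are small proteins that fill the space between the keratin filaments of hair. Myocardin is a coactivator of muscle genes that acts through serum response factor, which binds the CArG box.

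In a RefSeq gene table of GRCh38.p14, used for names and order alone, 27 protein-coding genes stand in the type II cluster, from KRT80 and KRT7 at one end to KRT8 and KRT18 at the other, and all are keratins. The type I cluster holds 62, from KRT222 to KRT17. Its 34 keratin-associated protein genes form an unbroken block, at places 13 to 46 of the 62, from KRTAP3-3 to KRTAP17-1, with 28 keratin genes before and after it. No gene position of that build was joined to a summit.

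Some promoters of the keratin-associated protein genes share stretches of sequence. RefSeq sequences of GRCh38.p14, which hold 250 bases before and 50 after a start, were found for 67 of the 89 genes. A word of 30 bases was shared with the promoter of another gene by 16 of the 33 keratin-associated protein promoters, by 2 of the 23 promoters of type I keratins (KRT37 and KRT38) and by 0 of the 15 of type II keratins, against 4.66% of all 35116 promoters. The pair with most shared words was KRTAP4-7 and KRTAP4-9, both on the + strand of chromosome 17. The 250 bases before each start are printed here, at chr17:41083900-41084149 and chr17:41105139-41105388 in GRCh38.p14, 5′ to 3′, with capitals for the bases in a 30-base word that also stands in the other. These are 168 of the 250 bases.
KRTAP4-7: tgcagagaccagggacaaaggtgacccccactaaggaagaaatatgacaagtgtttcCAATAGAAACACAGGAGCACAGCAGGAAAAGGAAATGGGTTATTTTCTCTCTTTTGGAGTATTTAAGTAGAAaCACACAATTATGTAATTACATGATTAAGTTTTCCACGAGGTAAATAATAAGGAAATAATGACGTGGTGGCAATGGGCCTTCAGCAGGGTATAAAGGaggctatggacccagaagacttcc
KRTAP4-9: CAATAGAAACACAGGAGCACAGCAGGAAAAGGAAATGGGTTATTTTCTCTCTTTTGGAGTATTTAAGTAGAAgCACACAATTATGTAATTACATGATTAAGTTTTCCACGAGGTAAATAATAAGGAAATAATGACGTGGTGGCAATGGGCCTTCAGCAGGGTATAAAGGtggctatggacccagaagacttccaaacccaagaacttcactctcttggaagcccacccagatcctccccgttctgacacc
The shared stretches stand at different distances from the start, and 1 base parts the shared block into 2 runs.

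The CArG box, CC followed by 6 bases of A or T and then GG, was searched on both strands of the 300 bases; the box reads alike on both strands. It was found in 0 of the 71 promoters of the clusters, against 1.29% of all promoters. With 1 mismatch allowed, 32 of the 71 held it (45.1%), against 18.9% of all promoters, and base composition was not held equal. The only promoter listed for KRT8 was one of those with 1 mismatch, on the - strand of chromosome 12. Whether KRT8 is read from this start or from another in these cells was not tested. Its 250 bases before the start, at chr12:52926470-52926719 in GRCh38.p14, are shown because KRT8 is a simple epithelial member with a promoter in the table. Capitals mark the closest match to the box, which begins at position -224 from the start.
KRT8: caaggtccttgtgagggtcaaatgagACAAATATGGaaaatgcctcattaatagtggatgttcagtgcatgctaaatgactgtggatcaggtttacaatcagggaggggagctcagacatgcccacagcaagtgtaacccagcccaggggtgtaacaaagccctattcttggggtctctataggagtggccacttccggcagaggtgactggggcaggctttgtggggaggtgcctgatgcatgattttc
A match is a string of letters and not a site, and whether a summit lies on any of these promoters was not tested. The table held no entry for KRT18, KRT7, KRT19 or KRT80.

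The clusters carried more summits per Mb than the autosomes as a whole. The rest of the type II cluster carried 121 summits per Mb (96.9 to 149), the type I cluster 111 (90.7 to 133) and the KRT8/KRT18 part 105 (38.6 to 229). The 22 autosomes carried 38.0 summits per Mb of covered sequence, which leaves out stretches of at least 1 Mb without a summit. The rest of the type II cluster stood at 3.18 times the density of the other autosomal sequence (2.55 to 3.92), the type I cluster at 2.91 times (2.39 to 3.52) and the KRT8/KRT18 part at 2.77 times (1.02 to 6.03). Counts varied along the type I cluster, from 6 to 15 summits in its full bins of 100 kb.

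**Figure D1:**
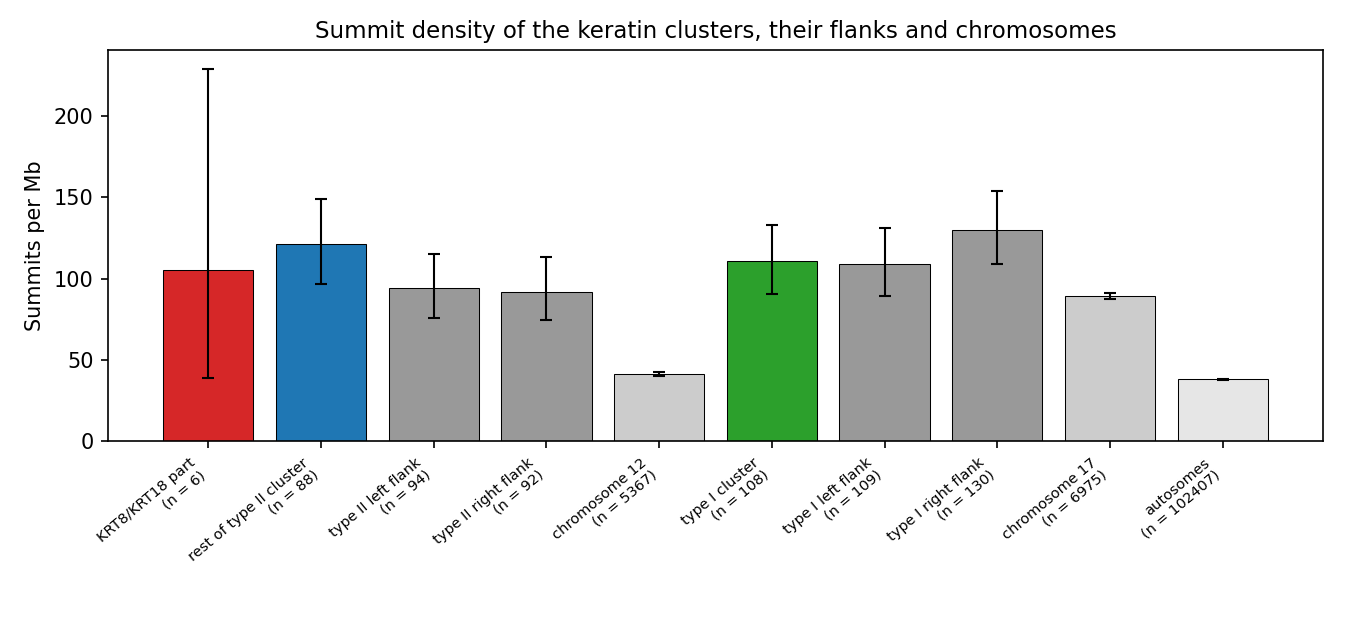
Summits per Mb (bars) with exact Poisson 95% intervals (lines) in the keratin clusters, the 1 Mb on each side of them, their chromosomes and the 22 autosomes; n is the number of summits. The clusters stand between 105 and 121 per Mb and their flanks between 92 and 130, all above the 38.0 of the autosomes.

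Regional density was compared over all windows of the same length on the covered autosomes. Of 3676 windows of 728 kb, 1.63% held at least the 88 summits of the rest of the type II cluster, and the median window held 20. Of 2730 windows of 977 kb, 2.49% held at least the 108 summits of the type I cluster, and the median was 27.0. On chromosome 17 itself, which carried 89.2 summits per Mb, 31.6% of such windows held as many. The type I cluster stood at 1.24 times the density of the other sequence of chromosome 17 (1.02 to 1.50). For the rest of the type II cluster and chromosome 12 this ratio was 2.98 (2.38 to 3.67). Of 47274 windows of 57 kb, 9.84% held at least the 6 summits of the KRT8/KRT18 part.

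The neighbouring sequence was also denser than the autosomes, so the high density was not limited to the keratin genes. The 1 Mb on either side of the type II cluster held 94 and 92 summits, and the rest of the cluster was 1.30 times as dense as both together (0.997 to 1.68), an interval that includes 1. Against the nearest 500 kb on each side the ratio was 1.07, and against 2 Mb on each side it was 1.46. With summits under 2 kb apart counted as 1 locus and flanks of 1 Mb, it was 1.36. The 1 Mb on either side of the type I cluster held 109 and 130 summits, and the cluster was 0.925 times as dense as both (0.730 to 1.17). The type I cluster and the rest of the type II cluster differed by a ratio of 0.914 (0.684 to 1.23).

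The KRT8/KRT18 part held 6 summits, with a median score of 11.2 against 8.50 in the list. From low to high position they lay at 53291281 with a score of 13.8, at 53292603 with 9.71, at 53297398 with 12.6, at 53298357 with 7.53, at 53317690 with 8.83 and at 53343129 with 18.0. Scores are the authors' values from the peak calling, with no named unit, and rank summits within the list alone. The first 4 stood in 2 close pairs, 1.32 kb and 0.959 kb apart, near the low end of the part. The strongest lay alone near the high end, 25.4 kb from the summit before it and 9.24 kb from the one after. It ranked 9455 in the list, and 8.95% of all summits scored as high or higher. It lay 129 bases beyond 53343000, so it belonged to the KRT8/KRT18 part but not to the type II cluster if that is ended there. The nearest summit beyond 53347000 was at 53352365 with a score of 10.1.

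Density in the KRT8/KRT18 part was 0.871 times that of the rest of the type II cluster (0.311 to 1.97) and 1.13 times that of the type II flanks (0.410 to 2.51). Both intervals include 1 and are wide with 6 summits, so the data do not show whether the KRT8/KRT18 part differs from the rest of the cluster. The value also turned with the settings. It was 1.60 over the summits in the top 25% of scores alone (0.308 to 5.26). It was 0.217 when 10 kb were taken off each end of the part. That narrowing left only the summit at 53317690 in the part, and the 10 kb at its low end were then counted with the rest of the cluster. Of the 6 summits, 3 had a score in the top 25% of the list, a score of 12.2 or more (50%, exact Clopper-Pearson interval 11.8 to 88.2); ties at that score put 26.3% of the whole list in this class. None of the 6 reached a score of 20, which 6.16% of the list did.

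The rest of the type II cluster, which holds the hair and skin keratins and also KRT7, had scores near those of the list. The lowest was 3.33, the highest 33.5 and the median 9.36, against 8.50 in the list and 8.03 in the type II flanks. In the top 25% of scores were 24 of its 88 summits (27.3%, 18.3 to 37.8), 13 of the 94 in the left flank (13.8%, 7.57 to 22.5) and 19 of the 92 in the right flank (20.7%, 12.9 to 30.4). Counted over these summits alone, this part was 2.06 times as dense as its flanks (1.16 to 3.61), while the interval of the ratio over all summits included 1.

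The 5 highest scores of the type II cluster stood at 52995056 with 33.5, at 52803598 with 32.9, at 52652414 with 28.8, at 52627282 with 22.9 and at 53108357 with 22.8. The first 2 were the only ones of the cluster with a score of at least 30, and they lay in different 100 kb bins, the fifth and the third. In the first 100 kb, 3 of 9 summits reached a score of 20, against 2 of 13 in the sixth bin and at most 1 in any other. This is the KRT80 and KRT7 end of the gene order, but no summit was matched to either gene. The 7 full bins held 9 to 15 summits each, with medians from 7.96 to 10.6, so no bin stood out in its typical score.

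**Figure D2:**
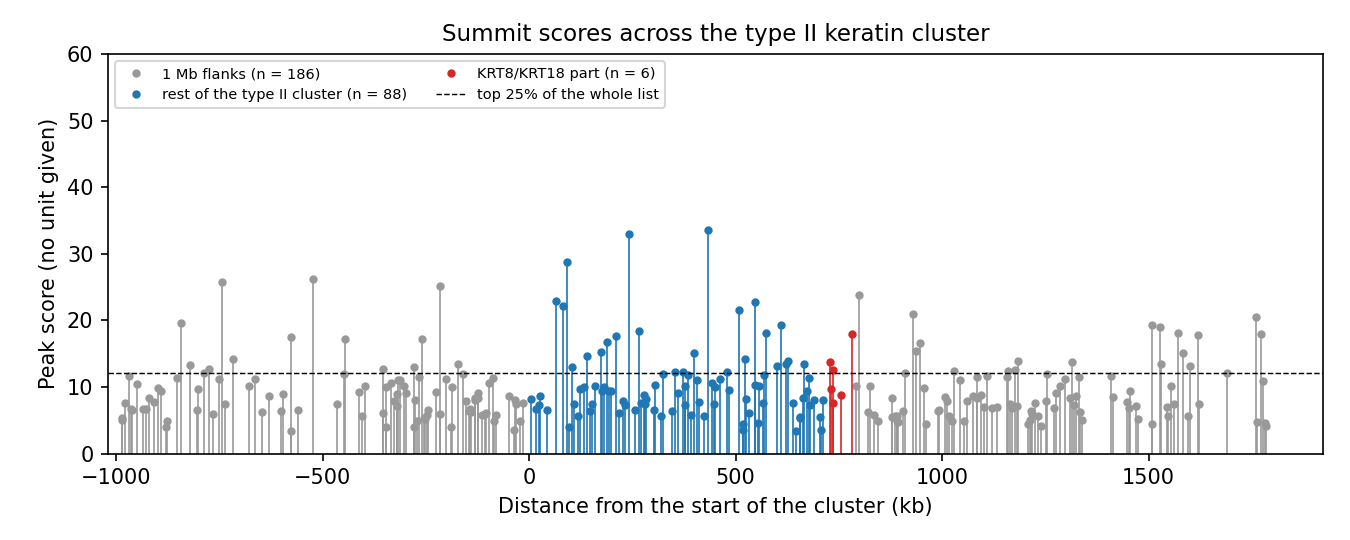
Each point is 1 summit, at its distance in kb from the start of the type II cluster (x axis) and its peak score (y axis, no unit given), for the cluster, the KRT8/KRT18 part and 1 Mb on each side; the dashed line marks the top 25% of the whole list. Only 2 summits of the cluster pass a score of 30, and the 6 of the KRT8/KRT18 part lie between 7.53 and 18.0.

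The type I cluster had higher scores than its flanks and than the rest of the type II cluster. The lowest was 3.36, the median 12.2 and the highest 49.7, while the median was 8.32 in its left flank and 8.66 in its right flank. In the top 25% of scores were 55 of its 108 summits (50.9%, 41.1 to 60.7), against 56 of the 239 in its flanks (23.4%, 18.2 to 29.3). These summits were 2.01 times as dense as in the flanks (1.36 to 2.97) and 1.71 times as dense as in the rest of the type II cluster (1.04 to 2.88), while over all summits both intervals included 1.

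Of the 2730 windows of the same length on the autosomes, 0.0366% held at least 55 summits in the top 25% of scores. This is 1 window, which lies on chromosome 17 from 39081774 on and overlaps the cluster. The next highest window held 45. The strongest scores showed the same contrast. A score of at least 30 was reached by 17 of the 108 summits of the type I cluster (15.7%, 9.45 to 24.0), by 2 of the 88 in the rest of the type II cluster (2.27%, 0.276 to 7.97) and by none of the 239 in the type I flanks, against 0.974% of the whole list. The cluster held 0.102% of all summits and 1.65% of the 1029 with such a score.

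**Figure D3:**
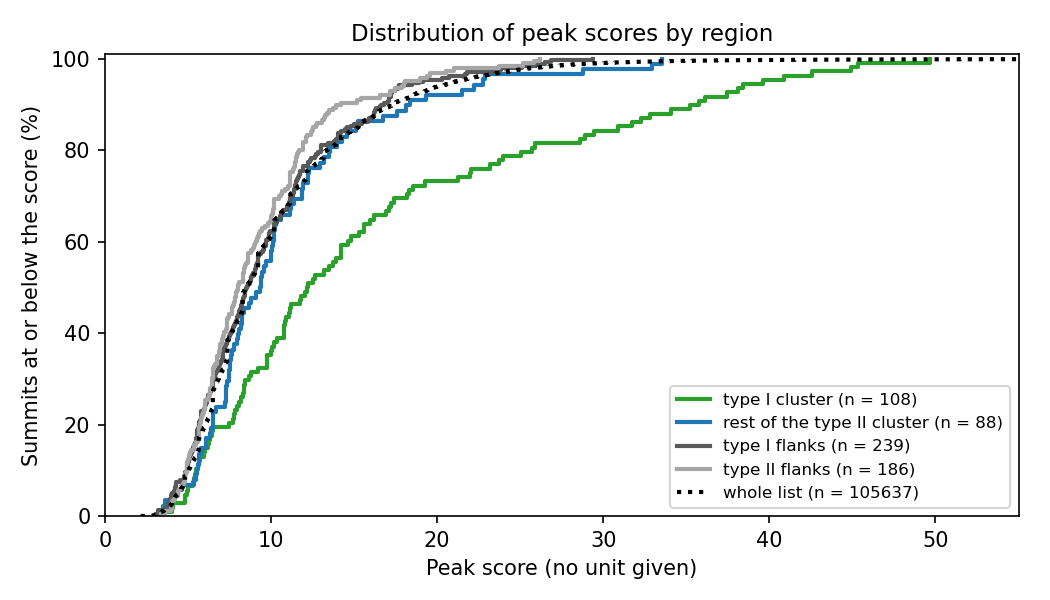
Share of summits (y axis, percent) at or below each peak score (x axis, no unit given) in the type I cluster, the rest of the type II cluster, their flanks and the whole list. At the lower quartile, the median and the upper quartile the curve of the type I cluster, with a median of 12.2, lies to the right of the others, whose medians lie between 8.03 and 9.36.

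The high scores of the type I cluster stood together in its middle. In the first 3 bins of 100 kb the median scores were 10.8, 11.7 and 11.7, with 6 to 9 summits each. The fourth bin had a median of 18.1, the fifth 33.7, the sixth 28.9 and the seventh 14.8. The eighth and ninth bins came down to 11 and 8.09, and the last, of 77 kb, to 5.64. The fifth bin had 11 of its 12 summits and the sixth 11 of its 13 in the top 25% of scores, and the last had 0 of 11. The number of summits did not follow this course, since the ninth bin held 15 and the fifth 12.

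**Figure D4:**
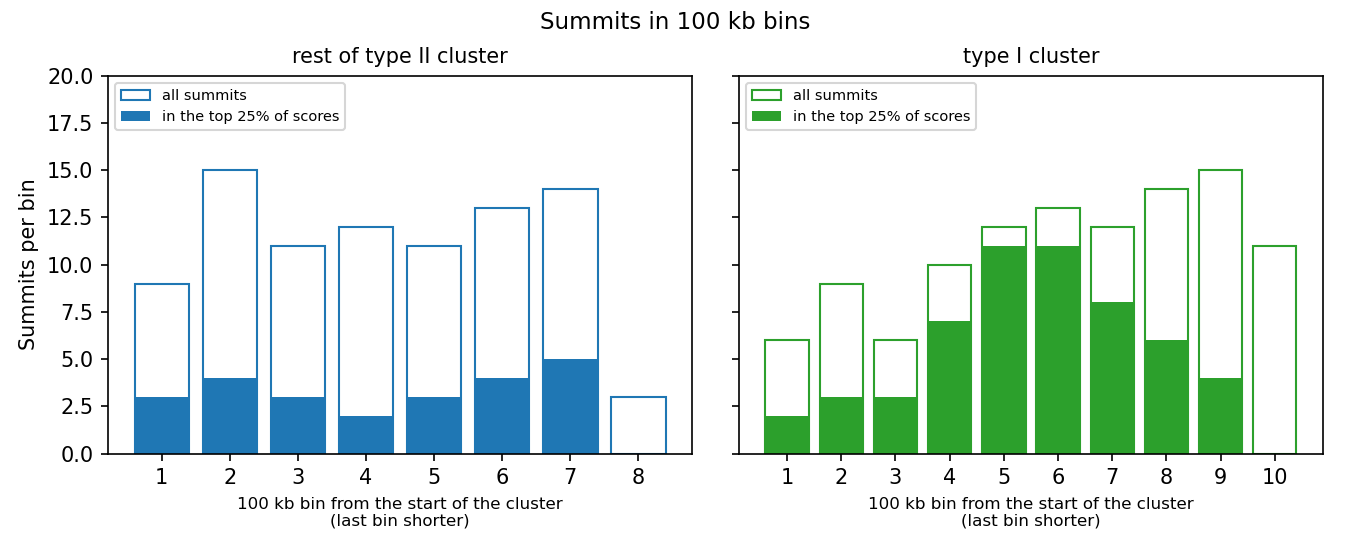
Number of summits in bins of 100 kb from the start of each cluster (x axis, the last bin shorter), for all summits (open bars) and those in the top 25% of scores (filled bars). In the type I cluster 11 of 12 and 11 of 13 summits of the fifth and sixth bins are filled, while in the type II cluster at most 5 are filled in any bin.

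The stretch was bounded by a scan in which a summit in the top 25% of scores counted 1 and any other was subtracted as 1, and the run with the highest sum was kept. It was thus chosen by its scores, and its values are a description with no test. It ran from 39150182 to 39538312, over 388 kb, and held 50 summits, of which 40 were in the top 25% of scores, a sum of 30. Among 17021 such runs on the autosomes this sum was the highest. Scores in it had a median of 23.5, and 28 of its 50 summits reached a score of 20, against 1 of the 58 elsewhere in the cluster. Without the stretch, 25.9% of the summits of the type I cluster were in the top 25% of scores (15.3 to 39.0), with 9 of 23 before it (39.1%, 19.7 to 61.5) and 6 of 35 after it (17.1%, 6.56 to 33.6). Since the stretch was taken out for its high scores, this remainder is a description too.

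All 17 summits with a score of at least 30 stood in this stretch, within 221 kb between 39190782 and 39411900. The 5 highest of the cluster were at 39316649 with a score of 49.7, at 39203272 with 45.3, at 39324201 with 44.9, at 39334218 with 42.6 and at 39305709 with 40.9. Of these, 4 lay within 30 kb of each other and the other one was more than 100 kb away. Of the 30 summits of these 221 kb, 27 were in the top 25% of scores, and the lowest score, 4.04 at 39396569, stood next to one of 34.1 at 39394588. The highest of the cluster ranked 168 in the list, so the stretch stood out by the number of high scores and not by any single one.

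**Figure D5:**
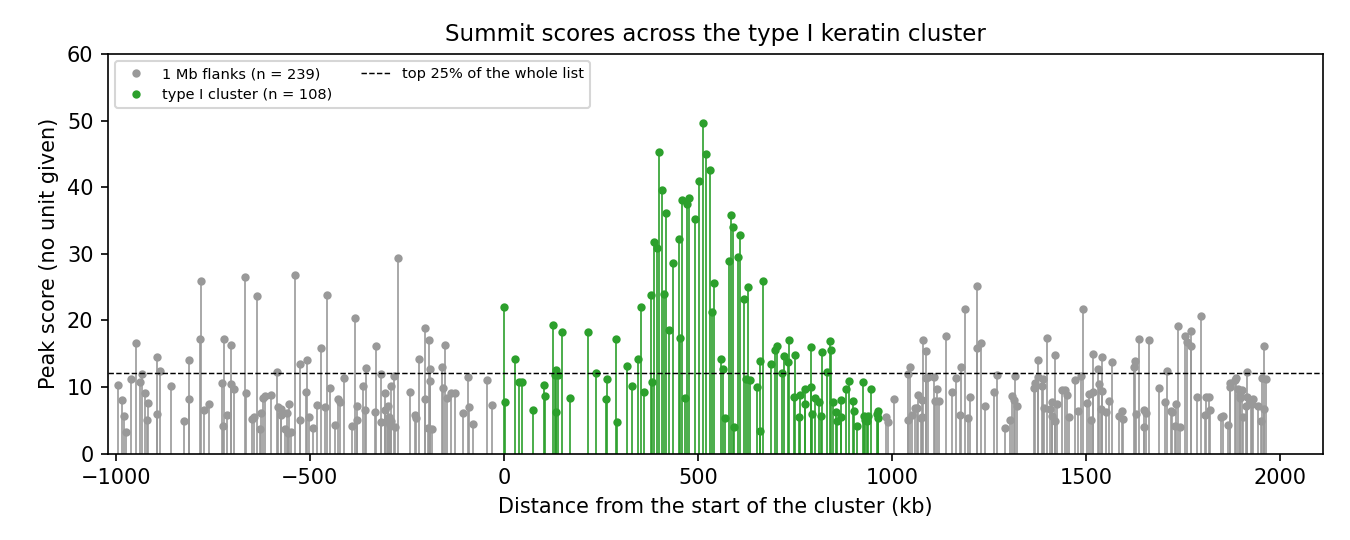
Each point is 1 summit, at its distance in kb from the start of the type I cluster (x axis) and its peak score (y axis, no unit given), for the cluster and 1 Mb on each side; the dashed line marks the top 25% of the whole list. The scores rise in the middle of the cluster to 49.7 and are at most 29.4 in the flanks.

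Density and score did not go together along the type I cluster. The 346 kb before the stretch carried 66.4 summits per Mb (42.1 to 99.7) with a median score of 11.2. The stretch itself carried 129 (95.6 to 170), and the 243 kb after it carried 144 (100 to 201) with a median score of 7.74. So the part after the stretch was as crowded as the stretch but had low scores, and 6 of its 35 summits were in the top 25%. The gene order of the cluster also runs from keratins over the block of keratin-associated protein genes to keratins, but without gene positions in GRCh37 the stretch was not matched to that block. Whether the words that keratin-associated protein promoters share have a part in the scores was not tested.

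Summits in the clusters were closer together than in the list as a whole. Another summit lay within 10 kb of 83 of the 88 summits of the rest of the type II cluster (94.3%, 87.2 to 98.1), of 98 of the 108 of the type I cluster (90.7%, 83.6 to 95.5) and of 5 of the 6 in the KRT8/KRT18 part. The shares were 88.7% and 91.6% in the flanks of the type II and the type I cluster and 64.1% in the whole list. The median distance between summits that follow each other was 6.47 kb in the rest of the type II cluster, 6.69 kb in the type I cluster and 6.50 kb in its stretch of high scores, against 12.2 kb in the list. In the flanks it was 7.26 kb (type II) and 6.38 kb (type I), so close spacing was not limited to the clusters.

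Of 36 bins of 20 kb in the rest of the type II cluster 1 was without a summit (2.78%, 0.0703 to 14.5), against 19 of 100 in its flanks (19.0%, 11.8 to 28.1). In the type I cluster 3 of 48 were empty (6.25%, 1.31 to 17.2) and in its flanks 6 of 100, while 54.1% of such bins on the covered autosomes were empty. The longest distance without a summit in the rest of the type II cluster was 26.6 kb, from 53136130 to 53162765, and in the type I cluster 44.4 kb, from 38975120 to 39019479. The longest distance was 71.4 kb in the flanks of the type II cluster and 43.8 kb in those of the type I cluster, so the type I cluster held a gap as long as any beside it.

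Repeated score values made up a smaller share of the rest of the type II cluster and of the type I cluster than of the list. The share in the type I cluster was near that of its chromosome, and its interval overlapped that of its flanks. In the list, 29.4% of summits had one of 19 score values that are each shared by at least 150 summits. The share was 3 of 88 in the rest of the type II cluster (3.41%, 0.709 to 9.64), 12 of 108 in the type I cluster (11.1%, 5.87 to 18.6) and 0 of 6 in the KRT8/KRT18 part. It was 12.4% in the flanks of the type II cluster, 5.02% in those of the type I cluster, and 32.2% and 10.3% over chromosomes 12 and 17. In the type I cluster it was 7 of 23 before the stretch of high scores, 4 of 50 in it and 1 of 35 after it, so repeated values were most frequent where summits were sparsest.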

How the data were processed

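Chromatin from A549 cells that overexpressed MYOCD was precipitated with anti-Myocardin or IgG, 1 library each. The authors deposited 1 list of 1 bp summits with a peak score for each, per the file headers, and no value is tied to a library. CASAVA 1.4 and the builds mm9 and GRCh38.p12 are named in the submitters' processing notes; caller settings, aligner and the use of IgG were not given in the sources used here. Summits past a chromosome end numbered 0 on hg19 (GRCh37), 1667 on hg18 and 1093 on hg38, so positions were read as GRCh37. Columns of per-sample values left out numbered 0.

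Summits were counted by region. Densities carry exact Poisson intervals, shares exact Clopper-Pearson intervals and density ratios the exact conditional interval (SciPy 1.17.1, Python 3.11.15). The interval of the ratio, the windows and the distances were checked on simulated summits. No p-value was computed, since the design has 1 list. Members, regions and measures were chosen with earlier results of these data known. Named by rule were every summit of the KRT8/KRT18 part, the 5 highest scores and the longest gap of each cluster, and the genes at the cluster ends; the stretch of high scores, the score limits of 20 and 30 and the shared promoter words were chosen after values were seen.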

Additional observations from a re-analysis of the deposited data

How the results depend on the processing

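Of 58 alternatives over 21 results, 38 stayed inside the interval of the main value, and 20 did not. The intervals of all 4 main ratios include 1, so no direction was set that an alternative could turn. For the KRT8/KRT18 part over the rest of its cluster the top 25% of scores gave 1.60, inside the interval. Over the top 25% of scores alone, density was 33.0 per Mb in the rest of the type II cluster and 56.3 in the type I cluster, fewer summits being counted. Their ratios to the flanks were then 2.06 and 2.01. For the KRT8/KRT18 part the ratio was 3.29, with only 3 summits counted and an interval of 0.645 to 10.5 that includes 1. With the KRT8/KRT18 part narrowed by 10 kb on each side, its ratio was 0.217 to the rest of the cluster and 0.291 to the flanks. Both values rest on the summit at 53317690 alone, and the rest of the cluster then took in the 10 kb at the low end. The top 10% of scores held 12.5% and 30.6% of the summits of the rest of the type II and the type I cluster, and the latter without its stretch of high scores, left out after seeing the data, had 25.9% in the top 25%. A neighbour lay within 5 kb of 44.3% and 61.1%, and within 20 kb of 100%, 96.3% and, in the KRT8/KRT18 part, 100%. Of windows on the same chromosome 1.13% (type II) and 31.6% (type I) held as many summits. Empty bins were 27.8% of 10 kb bins in the type I cluster and 0% of 50 kb bins in both clusters. Beyond the narrower class, bin or distance itself, the cause was not tested. No paired analysis was possible because the list has no values by library, and no replicate could be left out. The 6 summits of the KRT8/KRT18 part limit what can be said of it, and no read counts were used here.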

Other observations

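The scan for runs of high scores found few others of the size of that in the type I keratin cluster. The next on the autosomes lay on chromosome 5 from 140176710 to 140731559, with 37 of 48 summits in the top 25% of scores and a sum of 26, and on chromosome 8 from 84606535 to 87583025, with 48 of 71 and a sum of 25. The run on chromosome 5 had 4 summits with a score of at least 30 and that on chromosome 8 had 14, against 17 in the type I cluster. The runs were chosen by these scores, so the values describe the list and carry no test.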
